A study of Mus musculus with 23 samples.

Results

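VQ-D1 is a mouse myeloma that was passed from a donor to recipient mice, and it was measured here by RNA-seq beside plasma cells of mice without a tumour allele. The comparison takes every library with the group label VQ-D1, 4 of the 23 libraries of the series, against every library labelled Control, which are 3. VQ-D1 replicates 1 and 3 came from bone marrow and replicates 2 and 4 from spleen, and all 3 Control libraries came from bone marrow. The remaining 16 libraries belong to 4 other transplanted tumour lines (VQ-D2, VQ-D4, VQ-D5 and t-VK12653) and entered the same fit.

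VQ-D1 cells carry 3 engineered alleles: the Vκ*MYC transgene, an Nras allele with the Q61R change behind a removable stop cassette (NrasLSL Q61R/+), and IgG1-Cre. The Control mice carry IgG1-Cre alone, so both sides of the comparison share this allele. VQ-D2, VQ-D4 and VQ-D5 have the genotype of VQ-D1, and t-VK12653 is labelled with Vκ*MYC and no other allele. Every group, Control included, bears the same label for its sorted CD138+B220- cells, which calls them myeloma cells although the Control genotype holds no tumour allele. CD138 is the syndecan that marks plasma cells, and B220 is a form of CD45 found on B cells. Ages and sexes of the mice are not among the labels. VQ-D1 is 1 donor, and by the recipient numbers in the names of the deposited tables its replicates 1 and 2 came from one recipient and replicates 3 and 4 from another. For VQ-D1, n = 4 therefore counts libraries of 1 tumour, and p-values measure the spread between libraries rather than between tumours of this genotype.

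Plasma cells are the end stage of the B cell lineage. They switch off most of the B cell programme, expand the endoplasmic reticulum and secrete antibody, and multiple myeloma is their cancer in the bone marrow. Vκ*MYC places MYC under immunoglobulin kappa control and becomes active when somatic hypermutation in germinal centre B cells repairs a stop codon. IgG1-Cre acts in the same cells and removes the stop cassette before mutant Nras, a RAS GTPase held in its active state that feeds the RAF, MEK and ERK kinases.

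Total counts were 2685579 to 3790134 in the Control libraries and 3852762 to 10047314 in the VQ-D1 libraries. Levels are given as CPM, the reads of a gene scaled to library size as in the fit. A count of 3 reads over a group, the floor for a gene without reads, is 0.305 CPM over the Control libraries and 0.109 CPM over the VQ-D1 libraries. These floors and the counting intervals below cover counting error only. Across the 1000 most variable genes, Pearson's r was 0.895 to 0.923 between Control libraries, 0.837 to 0.952 between VQ-D1 libraries and −0.443 to −0.107 between a Control and a VQ-D1 library, as a description across genes, which are not independent replicates.

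VQ-D1 cells differed from control plasma cells in most of the genes tested. Of 12867 genes tested, 7639 (59.4%) had a Benjamini-Hochberg adjusted p under 0.05 in edgeR's quasi-likelihood test, which is the meaning of "called" from here on. Of these, 3823 (29.7%) were higher in VQ-D1 and 3816 (29.7%) lower. Past 1 on the log2 scale, 1954 were higher and 2464 lower. The 4 VQ-D1 and the 3 Control libraries did not overlap in 7852 genes (61.0%), and the median log2 fold change over all genes tested was 0.02. A value with an SE in brackets is the log2 fold change of VQ-D1 over Control, and "rose by" and "fell by" give its size. Each SE was derived from the test, as the size of the log2 fold change over the square root of the F statistic. For genes with few reads in a group it is only a rough guide. The gene groups described next are read against these shares.

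**Figure D1:**
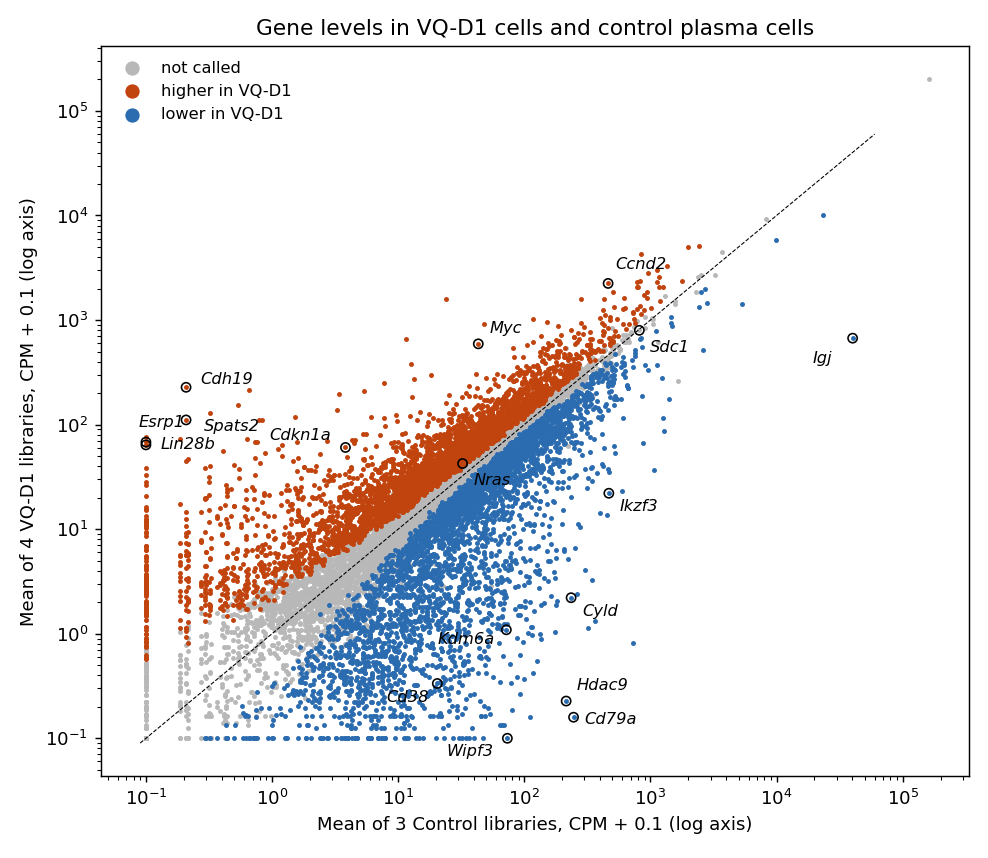
Mean level of each tested gene in the 3 Control libraries (x axis) and the 4 VQ-D1 libraries (y axis), both as CPM + 0.1 on log axes, with genes called higher in VQ-D1 in orange, called lower in blue and not called in grey, and a dashed line of equal levels. Myc, at 43.1 CPM in Control and 592 CPM in VQ-D1, and Cdh19 lie far above the line, Igj, Cd79a and Cyld far below it, and Sdc1 close to it.

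The genes of the engineered alleles came first. Myc, a transcription factor that drives growth and ribosome production, stood at 41.8, 57.98 and 29.4 CPM in the Control libraries and at 694, 609.5, 524 and 540.5 CPM in VQ-D1 replicates 1 to 4. Every VQ-D1 library lay above every Control library, with a log2 fold change of 3.76 (SE 0.179, edgeR adjusted p = 7.31e-13). Among the tumour lines, however, VQ-D1 had the lowest mean Myc level, 592 ± 77.5 CPM (SD, n = 4). Its difference from VQ-D5 was −1.01 on the log2 scale, from VQ-D4 −1.27, from VQ-D2 −2.56 and from t-VK12653 −3.47, each of them called. Whether the Myc count holds transgene reads is not stated in the sources used here, so transgene and mouse gene cannot be told apart in it.

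Nras was at 32.7, 31.4 and 32.8 CPM in Control and at 40.97, 45.8, 36.4 and 46.1 CPM in VQ-D1. The groups did not overlap, and the log2 fold change was 0.40 (SE 0.136, edgeR adjusted p = 0.0143). This call was lost with RLE scaling (adjusted p = 0.0504), in DESeq2 (0.0682), with the recipient as a random block in limma voom (0.0525), in the bone marrow libraries alone (0.166) and without Control replicate 2 (0.0556). Nras was lower in VQ-D1 than in VQ-D2 and VQ-D5, with differences of −1.01 and −1.51 on the log2 scale. Gene counts do not separate the Q61R allele from the normal one.

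The largest rises in VQ-D1 were in genes with no or almost no reads in control plasma cells. The genes named here were chosen for the size of their change and for groups without overlap, so both are a description. Cdh19, a cadherin known from the glial lineage, had 1 read over the Control libraries and stood at 218, 199, 268 and 224 CPM in VQ-D1 (ratio 2301, 95% counting interval 413 to 90902). Lin28b, an RNA-binding protein that blocks the maturation of let-7 microRNAs and is silent in most adult cells, had no Control read and 62.9, 71.3, 72.5 and 65.1 CPM in VQ-D1, at least 226-fold higher. Esrp1, an epithelial splicing regulator, had no Control read either and stood at 69.6, 71.99, 63.6 and 50.3 CPM, at least 206-fold higher. In each of these genes all 4 VQ-D1 libraries, from both tissues, carried reads, which the choice of genes without overlap required.

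The other 7 genes chosen for the largest rise were Spats2, Slc47a1, Tex13, Atp6ap1l, Tmem200a, Igsf23 and Il17rd. Spats2 had 1 Control read against 104.9 to 114 CPM in VQ-D1 (ratio 1094, 95% counting interval 196 to 43234). Slc47a1, an exporter of organic cations, was at 35.04 to 40.03 CPM and at least 128-fold higher than in Control. Il17rd, a membrane inhibitor of fibroblast growth factor and ERK signalling, was at 6.42 to 16.5 CPM and at least 41.3-fold higher. In all, 21 genes without a Control read averaged at least 10 CPM in VQ-D1.

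In the other 4 tumour lines Esrp1 was low, with means of 0.0901 to 2.26 CPM, whereas the means of Cdh19 ranged over 0.0291 to 94.6 CPM. Lin28b averaged 47.9 CPM in VQ-D4 and 54.04 CPM in t-VK12653, neither of which was called different from VQ-D1 (edgeR adjusted p = 0.0541 and 0.265). It averaged 0.0362 CPM in VQ-D2 and 4.31 CPM in VQ-D5, and VQ-D1 was called higher than both.

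The genes with the largest losses, chosen in the same way, included several of the B cell lineage. Cd79a, the alpha signalling chain of the B cell receptor, stood at 179.9, 201 and 356 CPM in Control and had 2 reads over all VQ-D1 libraries (Control over VQ-D1: ratio 3518, 95% counting interval 973 to 29069). Blk, a B cell kinase, was at 34.04, 53.9 and 53.9 CPM in Control and had no VQ-D1 read, at least 439-fold lower. Hdac9, a class IIa histone deacetylase, was at 196, 164 and 284 CPM and had 3 VQ-D1 reads (Control over VQ-D1: ratio 2032, 95% counting interval 694 to 9862). In bulk RNA, fewer cells of a type and less RNA per cell cannot be told apart.

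Wipf3 at 60.7 to 88.8 CPM and Ryk, a Wnt receptor, at 29.3 to 45.7 CPM in Control had no VQ-D1 read, at least 676-fold and at least 373-fold lower. Sorcs2, a sortilin family receptor, was at 104 to 116 CPM in Control and had 2 VQ-D1 reads (Control over VQ-D1: ratio 1528, 95% counting interval 422 to 12637). Sgip1, Cd200 and Parm1 had none, and the call for Parm1 was lost in DESeq2 (adjusted p = 0.144). Rag1, the recombinase of lymphocyte precursors, had no VQ-D1 read and uneven Control values of 58.4, 29.7 and 2.36 CPM. In all, 16 genes with a mean of at least 10 CPM in Control had no VQ-D1 read.

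**Figure D2:**
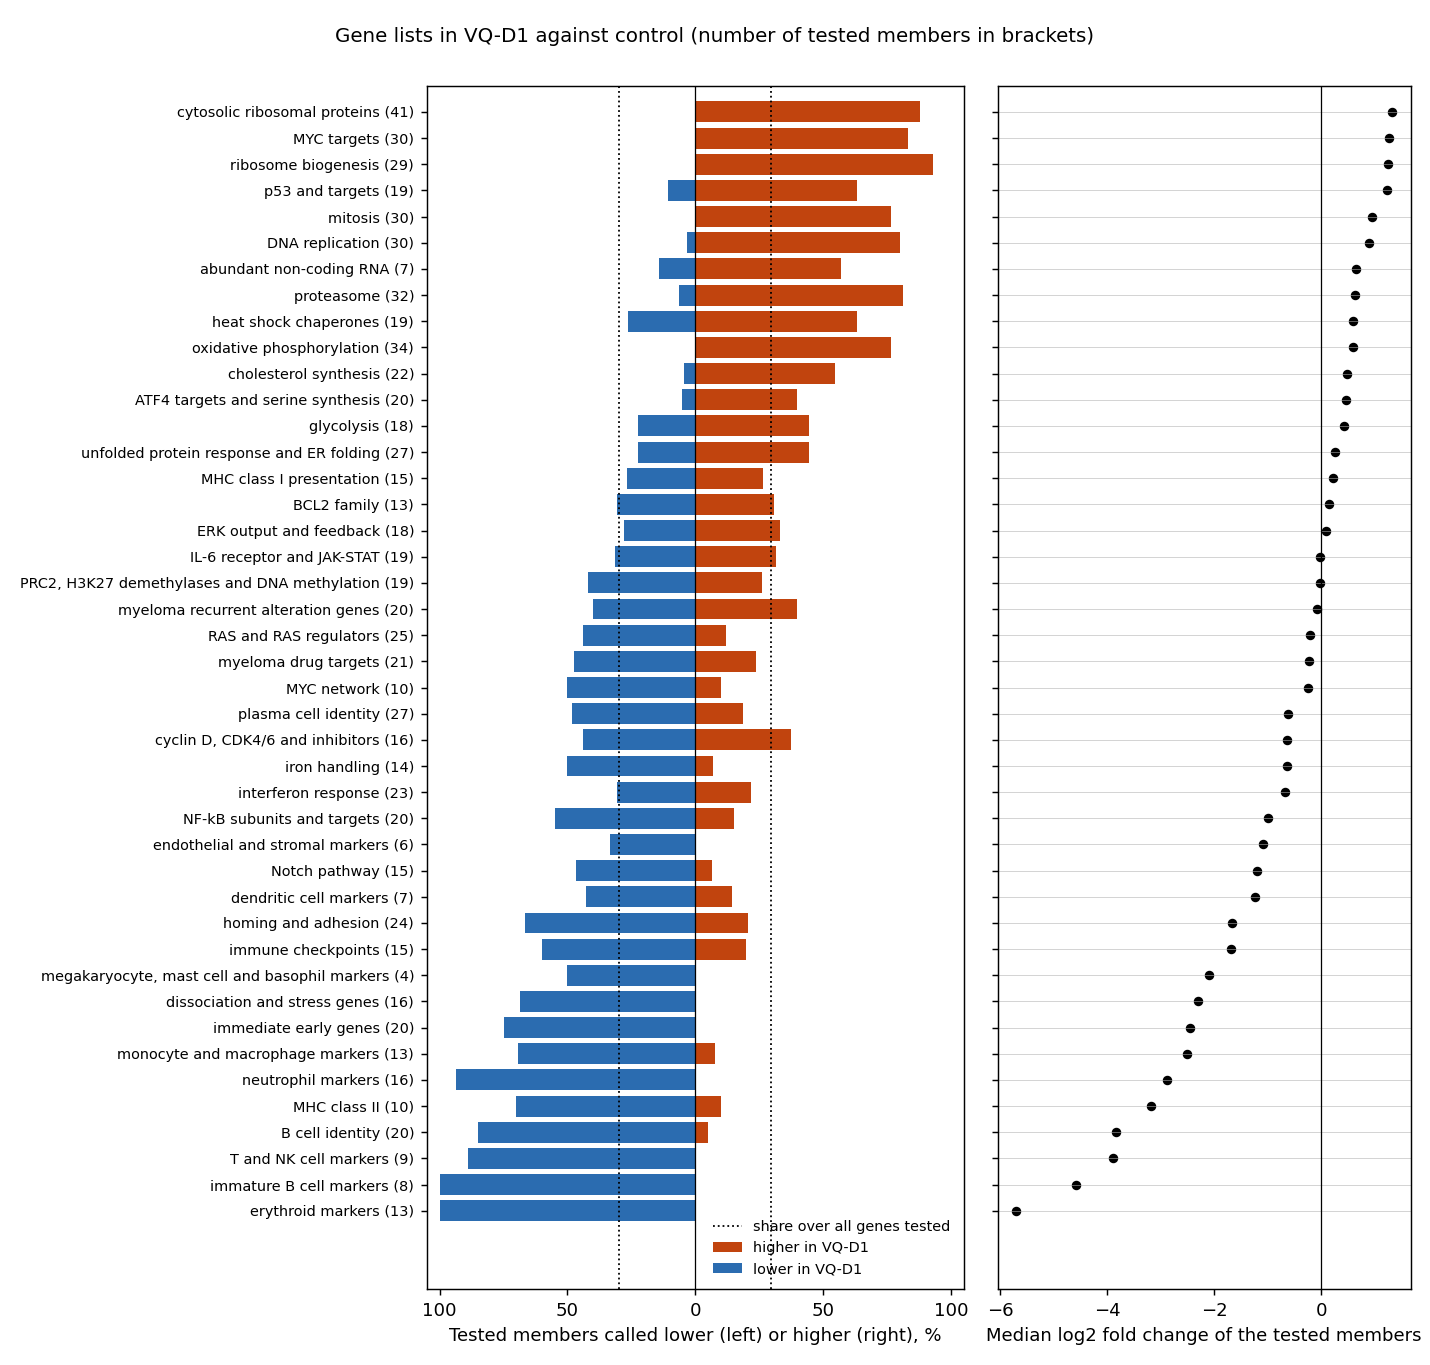
Left, share of the tested members of each gene list other than that of sex-linked genes (rows, number of tested members in brackets) called higher (orange, to the right) or lower (blue, to the left) in VQ-D1 in percent, with dotted lines at 29.7%, the shares over all genes tested; right, the median log2 fold change of the same members. Ribosomal proteins, MYC targets and ribosome biogenesis have the highest medians (1.32, 1.26 and 1.25), and B cell identity and the markers of erythroid, immature B and T and NK cells have the lowest of the lists shown.

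The growth programme was higher in VQ-D1. Among 30 MYC targets 25 were called higher and 0 lower, with a median log2 fold change of 1.26, beside 29.7% higher, 29.7% lower and a median of 0.02 over all genes. Among 29 genes of ribosome biogenesis 27 were higher and 0 lower (median 1.25), and among 41 cytosolic ribosomal proteins 36 were higher and 0 lower (median 1.32). Nop58, a core protein of small nucleolar ribonucleoproteins, was at 68.1, 65.5 and 51.5 CPM in Control and 222, 227, 267 and 222 CPM in VQ-D1 (1.96, SE 0.123). Wdr12, a factor of large subunit assembly, was at 7.62 to 16.03 CPM in Control and 46.8 to 56.8 CPM in VQ-D1 (2.18, SE 0.178). In both genes the groups were far apart. Reads of ribosomal protein genes can be shared with pseudogenes, which makes single members of that family uncertain.

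The authors' TPM values, which are scaled to gene length, allow levels to be compared between genes. The ranks given here leave out predicted, small RNA, immunoglobulin and sex-linked genes and the list of abundant non-coding RNA. The ribosomal protein gene Rpl8 had rank 2 in VQ-D1, at 5906 ± 324 TPM (SD, n = 4), and rank 15 in Control, at 2236 ± 52.9 TPM (SD, n = 3). Rank 1 in VQ-D1 was held by Hsp90b1, a chaperone of the endoplasmic reticulum, at 8181 ± 799 TPM against 7243 ± 1186 TPM in Control. Itm2b, a small membrane protein, was at 5861 ± 772 and 1155 ± 96.4 TPM, and the metallothionein gene Mt1 at 3931 ± 708 and 831 ± 227 TPM.

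MYC binds the E-box CACGTG, a palindrome that reads the same on both strands. Of 27025 RefSeq promoters (GRCm38.p6), taken from 250 bases before to 50 bases after the start, 7.24% hold this word. Of the MYC targets 27 had a promoter in the table and 8 of these (29.6%) hold it, as do 6 of 26 (23.1%) ribosome biogenesis genes. Both lists were written from knowledge of MYC targets, so these shares are no independent result. The 150 bases before the start are shown for 4 genes of the lists that were called higher and hold different numbers of E-boxes, 5′ to 3′ on the strand of the gene, with each E-box in capitals.
Nop2, chr6:125131733-125131882, plus strand: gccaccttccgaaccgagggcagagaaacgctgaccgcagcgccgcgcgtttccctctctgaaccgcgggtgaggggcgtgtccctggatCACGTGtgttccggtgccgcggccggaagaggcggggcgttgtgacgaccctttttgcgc
Hspd1, chr1:55088244-55088393, minus strand: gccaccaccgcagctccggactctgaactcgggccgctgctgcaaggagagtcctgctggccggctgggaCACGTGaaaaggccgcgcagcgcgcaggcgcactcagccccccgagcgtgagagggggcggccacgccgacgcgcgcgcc
Ldha, chr7:46845654-46845803, plus strand: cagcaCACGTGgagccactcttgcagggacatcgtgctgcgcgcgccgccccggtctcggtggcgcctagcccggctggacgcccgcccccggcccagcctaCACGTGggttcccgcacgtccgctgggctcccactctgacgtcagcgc
Cdk4, chr10:127063385-127063534, plus strand: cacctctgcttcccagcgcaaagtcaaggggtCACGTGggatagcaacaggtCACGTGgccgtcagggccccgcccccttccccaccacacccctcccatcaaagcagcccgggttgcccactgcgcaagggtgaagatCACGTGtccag

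Nop2, an rRNA methyltransferase, rose by 2.01 (SE 0.125) on the log2 scale with 1 E-box, and Hspd1, the mitochondrial chaperonin, by 1.41 (SE 0.110) with 1. Ldha, lactate dehydrogenase A, rose by 1.73 (SE 0.176) with 2, and Cdk4, the kinase of D-type cyclins, by 0.68 (SE 0.113) with 3. A match is a word in the sequence and no measure of binding, and 4 genes chosen with their values known allow no comparison of the rise with the number of words.

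Genes of cell division were higher as well. Of 30 mitosis genes 23 were called higher and 0 lower (median 0.95). Of 30 DNA replication genes 24 were higher and 1, E2f2, was lower (median 0.89). With counts summed per recipient 17 mitosis and 18 DNA replication genes were higher, and the call for E2f2 was lost (adjusted p = 0.122). Without Control replicate 1 or 3, 17 mitosis genes were higher. The bone marrow libraries alone gave 16 mitosis and 19 DNA replication genes that were higher. Mki67, a protein of the mitotic chromosome surface, was at 778, 1336 and 748 CPM in Control and 2144, 3380.1, 3012 and 2857 CPM in VQ-D1 (1.48, SE 0.203). Cdc45, part of the replicative helicase, was at 9.73, 26.3 and 5.78 CPM in Control and 52.1, 88.6, 78.3 and 87.1 CPM in VQ-D1 (2.44, SE 0.341). In both genes Control replicate 2 was the highest Control library and still lay below every VQ-D1 library.

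Set against the other tumours, MYC targets in VQ-D1 were lower than in 2 lines and higher than in 1. Of 30, 21 were lower than in VQ-D2 and 24 lower than in VQ-D5, with 0 higher in either, where 26.5% and 29.7% of all genes were lower. Against VQ-D4, 8 were higher and 6 lower (20.4% and 20.8% of all genes). Against t-VK12653, 22 were higher and 1 lower (26.2% and 25.6% of all genes), although that line had a mean Myc level of 6542 ± 252 CPM (SD, n = 4). For mitosis genes, 17 were lower and 1 higher than in VQ-D2, 1 and 5 against VQ-D4, 27 and 1 against VQ-D5, and 1 and 15 against t-VK12653.

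The genes that open the G1 phase moved in both directions: of 16 genes of cyclin D, CDK4/6 and their inhibitors 6 were higher and 7 lower. Ccnd2, a D-type cyclin, was at 1060.2, 187 and 139 CPM in Control and 1881, 1950.3, 2809.5 and 2323 CPM in VQ-D1. The groups did not overlap, but Control replicate 1 was far above the other Control libraries, and the log2 fold change of 2.36 had an SE of 0.717 (edgeR adjusted p = 0.0107). With the bone marrow libraries alone the call for Ccnd2 was lost (adjusted p = 0.124). Ccnd3 (−1.66, SE 0.271), Cdk6 (−4.51, SE 0.599) and Cdkn2c, an inhibitor of CDK4 and CDK6 (−3.02, SE 0.368), fell. Cdkn2a, the locus of p16 and p19Arf, was at 1.71 to 2.92 CPM in Control and 0 to 1.11 CPM in VQ-D1, a call lost without the tissue term (adjusted p = 0.0751). Rb1, the substrate of these kinases, rose by 1.07 (SE 0.153) and was also higher than in each other tumour line.

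In the p53 group 12 of 19 tested genes were higher and 2, Fas and Cdkn2a, lower (median 1.22). Cdkn1a, which encodes the p21 inhibitor of cyclin-dependent kinases, was at 5.84, 3.75 and 1.58 CPM in Control and 57.01, 54.03, 72.9 and 57.4 CPM in VQ-D1. Every VQ-D1 library was above every Control library, with a log2 fold change of 4.04 (SE 0.450, edgeR adjusted p = 4.18e-07). Zmat3, an RNA-binding protein induced by p53, was at 31.1, 22.5 and 21.5 CPM in Control and 192, 207, 195 and 177 CPM in VQ-D1 (3.01, SE 0.216). Eda2r, a receptor of the TNF receptor family, had no Control read and 10.3 to 17.03 CPM in VQ-D1, at least 40.6-fold higher. Trp53, which encodes p53, rose by 1.37 (SE 0.123).

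Part of this group also set VQ-D1 apart from the other tumours. Cdkn1a, Zmat3, Trp53, Ccng1 and Mdm2 were called higher in VQ-D1 than in each of the 4 other lines, 5 of 19 genes, where 2.74% of all genes tested were. For Cdkn1a and Zmat3 this held under every alternative run. The calls for Trp53, Ccng1 and Mdm2 were each lost without VQ-D1 replicate 2 (adjusted p = 0.0699, 0.0651 and 0.0521) or 3 (0.0553, 0.0684 and 0.0932). They were also lost without the genes of chromosomes 5 and 8 (0.116, 0.0585 and 0.0624). Without the tissue term Trp53 (0.202) and Ccng1 (0.192) were lost. Without the filter on low counts Trp53 (0.159) and Mdm2 (0.0665) were lost, as with the replicate block (0.103 and 0.0588). Mdm2 was further lost without replicate 4 (0.121), with RLE scaling (0.0521) and in limma voom (0.0783). With the bone marrow libraries alone, where fewer lines could be compared, Mdm2 (0.392) and Ccng1 (0.0507) were lost. Cdkn1a averaged 60.4 ± 8.53 CPM in VQ-D1 (SD, n = 4) and 2.56 to 27.3 CPM in the other lines. Mdm2, the ubiquitin ligase of p53, was at 135 to 187 CPM in Control and 150.3 to 181 CPM in VQ-D1 and was not called between them (edgeR adjusted p = 0.658). Fas, a death receptor, was at 12.3 to 21.8 CPM in Control and 0.988 to 1.97 CPM in VQ-D1 (−3.54, SE 0.428).

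**Figure D3:**
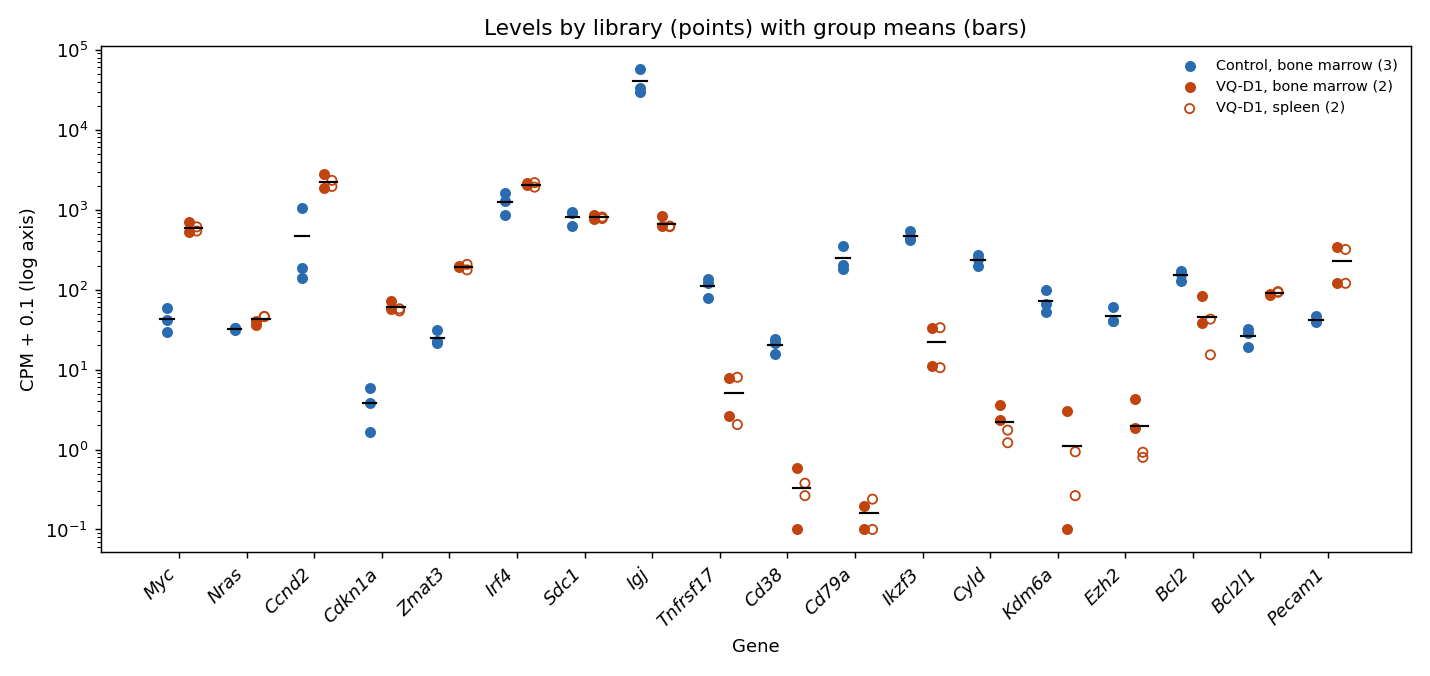
Level of 18 genes (x axis) in each Control library (blue), VQ-D1 bone marrow library (filled orange) and VQ-D1 spleen library (open orange), as CPM + 0.1 on a log axis, with horizontal bars for the group means. The groups overlap for Sdc1 and are apart for the other genes, and Ikzf3 (10.45 to 33.3 CPM), Bcl2 (15.2 to 83.7 CPM) and Pecam1 are spread within VQ-D1.

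In the BCL2 family 4 of 13 genes were higher and 4 lower, shares near the 29.7% in each direction over all genes. Bcl2, a survival factor and the target of venetoclax, was at 158, 128 and 169 CPM in Control and 83.7, 42.7, 38.6 and 15.2 CPM in VQ-D1. All VQ-D1 libraries were below Control, with a wide spread of their own (log2 fold change −1.68, SE 0.389, edgeR adjusted p = 0.00159). Bcl2l1, which encodes the survival factor BCL-XL, was at 19.2 to 32.1 CPM in Control and 84.3 to 94.2 CPM in VQ-D1 (1.84, SE 0.337), and it was higher than in each other line, except with the bone marrow libraries alone (adjusted p = 0.154) and without VQ-D1 replicate 2 (0.0629) or 4 (0.0683). Among the death-promoting genes falls were seen in Bcl2l11 (−1.76, SE 0.270) and Bmf (−1.33, SE 0.321) and rises in Bax (1.70, SE 0.156) and Pmaip1 (1.98, SE 0.319). Mcl1, a survival factor of plasma cells, was at 575 to 752 CPM in Control and 598 to 639.7 CPM in VQ-D1 and was not called (edgeR adjusted p = 0.139), but it was called lower with RLE scaling (0.0263), in DESeq2 (0.0120) and without Control replicate 2 (0.0145).

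Of 27 plasma cell identity genes 13 were lower, 5 higher and 9 not called (median −0.63), with 3 higher without Control replicate 2. Sdc1, which encodes the CD138 used in the sort, was at 928, 627 and 895 CPM in Control and 854, 774, 755 and 808 CPM in VQ-D1. The groups overlapped (0.04, SE 0.249, edgeR adjusted p = 0.916), so the marker that defines the cells was present in every library. Irf4, a transcription factor of plasma cells, rose by 0.71 (SE 0.149). Xbp1 (−0.90, SE 0.176) and Prdm1 (−0.91, SE 0.287), regulators of the plasma cell fate, fell. The call for Prdm1 was lost under 6 alternatives, among them the bone marrow libraries alone (adjusted p = 0.0674), without Control replicate 1 (0.0609) or 3 (0.0580) and without VQ-D1 replicate 3 (0.0511).

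Single genes of the antibody-secreting cell fell much further. Igj, the joining chain of secreted IgM and IgA, was at 32911, 29954 and 57526 CPM in Control and 618, 623, 829 and 613 CPM in VQ-D1 (−5.98, SE 0.577). Tnfrsf17, the BCMA receptor, was at 136, 77.8 and 120.1 CPM in Control and 7.65, 7.91, 2.51 and 1.95 CPM in VQ-D1 (−4.45, SE 0.467). In both genes the groups were separate. Cd38, an ectoenzyme of the plasma cell surface, was at 15.7 to 23.9 CPM in Control and 0 to 0.494 CPM in VQ-D1 (−6.24, SE 0.975). Fkbp11, a prolyl isomerase of the endoplasmic reticulum, went the other way, at 45.4 to 57.7 and 193 to 239.7 CPM (2.03, SE 0.173). Immunoglobulin genes were not examined here.

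Among genes of the unfolded protein response and of folding in the endoplasmic reticulum 12 of 27 were higher and 6 lower (median 0.26). Falls were seen in Herpud1, a factor of protein degradation (−2.21, SE 0.306), in the co-chaperone gene Dnajb9 (−1.60, SE 0.208) and in Ddit3, which encodes the stress factor CHOP (−1.44, SE 0.310). Ero1l, an oxidase that forms disulfide bonds, rose by 1.28 (SE 0.166), and the central chaperone gene Hspa5 was not called (0.12, SE 0.135). Proteasome genes were more uniform, with 26 of 32 higher and 2 lower (median 0.63). The lower ones were Psmc2 on chromosome 5 (−0.54, SE 0.106) and Psmd7 on chromosome 8 (−0.60, SE 0.103). Psmb5, the subunit bound by bortezomib, was at 14.7 to 17.3 CPM in Control and 33.6 to 35.8 CPM in VQ-D1 (1.03, SE 0.164).

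Among metabolic lists, 26 of 34 oxidative phosphorylation genes were higher and 0 lower (median 0.58). Cholesterol synthesis had 12 of 22 higher and 1 lower (median 0.48). Glycolysis had 8 of 18 higher and 4 lower (median 0.42), with Pkm rising by 1.66 (SE 0.117) and the lactate exporter gene Slc16a3 falling (−2.17, SE 0.586), a call lost without Control replicate 2 (adjusted p = 0.0829). Without Control replicate 2, 2 glycolysis genes and 3 cholesterol synthesis genes were called lower, and without VQ-D1 replicate 1 these counts were 2 and 0.

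The list of ATF4 targets and serine synthesis had 8 of 20 higher and 1 lower (median 0.45), and 5 higher without Control replicate 3. Stc2, a secreted glycoprotein, was at 1.62, 0.341 and 0 CPM in Control and 82.9, 47.1, 83.8 and 58.3 CPM in VQ-D1 (6.98, SE 0.403). Psat1, an enzyme of serine synthesis, rose by 2.44 (SE 0.211). Heat shock chaperones had 12 of 19 higher and 5 lower (median 0.59), and the inducible Hspa1b was at 9.46 to 46.4 CPM in Control and 0 to 0.494 CPM in VQ-D1. Iron handling had 1 of 14 higher and 7 lower (median −0.63).

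Of 20 genes of B cell identity 17 fell and 1 rose (median −3.83). The adaptor gene Blnk was the one that rose, at 160.0 to 253 CPM in Control and 341 to 385 CPM in VQ-D1 (0.74, SE 0.139). Cd79b, the partner of Cd79a in the receptor, was at 182 to 241 CPM in Control and 152 to 177 CPM in VQ-D1 and was not called (−0.29, SE 0.173, edgeR adjusted p = 0.153), though it was called lower with the bone marrow libraries alone (0.0399) and in a fit of the 7 libraries alone (0.0175). Markers of immature B cells were lower in 8 of 8 tested genes (5 in a fit of the 7 libraries alone), with a summed level of 361 to 568 CPM in Control and 30.1 to 115 CPM in VQ-D1. The part of such cells in the B cell values was not tested. Of 13 immature B cell markers in the files 8 passed the filter on low counts. Members of both lists that passed it through the Control libraries alone had to differ, so these counts are a description.

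Among MHC class II genes 7 of 10 were lower and 1 higher (median −3.19). H2-Ab1, a chain of the I-A molecule, was at 169, 286 and 208 CPM in Control and 4.20, 3.62, 9.56 and 3.07 CPM in VQ-D1 (−5.14, SE 0.400). Cd74, the invariant chain that escorts class II molecules, was at 3940.4, 2776 and 3033 CPM in Control and 3081, 3192, 2318 and 2254 CPM in VQ-D1. Its values overlapped (−0.22, SE 0.349, edgeR adjusted p = 0.603), unlike those of H2-Ab1. H2-Oa, a chain of a regulator of class II peptide loading, was at 0, 7.16 and 0.263 CPM in Control and 36.3, 29.2, 26.7 and 25.9 CPM in VQ-D1 (3.67, SE 0.861), and was also higher than in each other line. Its call against Control was lost in DESeq2 (adjusted p = 0.0756). In MHC class I presentation 4 of 15 genes were higher and 4 lower (median 0.22), shares near those of all genes, with 1 lower without Control replicate 1 and 2 lower without VQ-D1 replicate 1.

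Of 18 tested genes of ERK output and feedback, downstream of RAS, 6 were higher and 5 lower (median 0.09), 3 lower in a fit of the 7 libraries alone. These shares lie near the 29.7% of all genes, and the values below are of single members. Spry4, a feedback inhibitor of receptor signalling to ERK, was at 0, 1.36 and 0.525 CPM in Control and 83.4, 83.03, 58.3 and 47.4 CPM in VQ-D1 (6.66, SE 0.517). Etv5, a transcription factor induced by ERK signalling, was at 6.57 to 9.40 CPM in Control and 27.1 to 55.5 CPM in VQ-D1 (2.50, SE 0.369). Dusp4, a phosphatase of ERK on chromosome 8, was at 35.99, 4.77 and 6.31 CPM in Control and 0.193 to 0.494 CPM in VQ-D1 (−5.33, SE 0.923). Spred1, another inhibitor of the pathway, fell by 5.39 (SE 0.536), and Dusp6 was not called (0.43, SE 0.415), except without the filter on low counts (adjusted p = 0.0102).

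Spry4 averaged 0.0848 ± 0.170 CPM in t-VK12653 (SD, n = 4), the line labelled without the Nras allele, 177 ± 35.7 CPM in VQ-D2, 24.3 ± 7.68 CPM in VQ-D4 and 192 ± 37.5 CPM in VQ-D5. This is 1 member of the list. Of 18 tested genes of ERK output and feedback, 6 were higher and 5 lower than in t-VK12653 (26.2% and 25.6% of all genes). Lower than in VQ-D2, VQ-D4 and VQ-D5 were 11, 10 and 12 (26.5%, 20.8% and 29.7% of all genes), and 2, 3 and 2 higher. Against Control, 3 of 25 RAS genes and regulators were higher and 11 lower (median −0.22), with 1 higher under RLE scaling or without Control replicate 2. Rras2, a relative of RAS, was at 16.2 to 28.6 CPM in Control and had 3 reads in VQ-D1 (Control over VQ-D1: ratio 205, 95% counting interval 69.1 to 999.5). Hras rose by 1.29 (SE 0.136). In the network of MYC partners and antagonists 1 of 10 genes was higher and 5 were lower (median −0.24), 3 lower with the bone marrow libraries alone.

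Immediate early genes, which are induced within minutes of a stimulus, were lower in 15 of 20 cases and higher in 0 (median −2.46). Egr1 was at 981, 258 and 332 CPM in Control and 117, 36.9, 26.96 and 32.9 CPM in VQ-D1 (−3.45, SE 0.727), a call lost with the bone marrow libraries alone (adjusted p = 0.0580). Klf2, a factor of lymphocyte quiescence, was at 422, 189 and 171 CPM in Control and 5.68, 0.494, 2.22 and 0.836 CPM in VQ-D1 (−7.69, SE 1.03). Within each group replicate 1 was the highest in both genes. Genes that respond to tissue dissociation, a list that shares members with this one, were lower in 11 of 16 cases and higher in 0, and their summed level was 4625 to 11643 CPM in Control and 1056 to 3304 CPM in VQ-D1. The part of handling in this difference was not tested. With the bone marrow libraries alone 9 immediate early and 6 dissociation genes were called lower.

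Genes of NF-kB subunits and targets were lower in 11 of 20 cases and higher in 3 (median −0.99). Cyld, a deubiquitinase that restrains NF-kB, was at 239, 198 and 268 CPM in Control and 3.46, 1.65, 2.22 and 1.11 CPM in VQ-D1. The groups were far apart, with a log2 fold change of −6.80 (SE 0.226, edgeR adjusted p = 2.97e-15). Cyld averaged 45.4 to 173 CPM in the other lines, and VQ-D1 was called lower than each of them. Cd83 was at 35.8 to 82.4 CPM in Control and had 3 reads in VQ-D1 (Control over VQ-D1: ratio 468, 95% counting interval 159 to 2278). The adhesion receptor gene Icam1 rose by 1.48 (SE 0.203).

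In the list of the IL-6 receptor and JAK-STAT 6 of 19 genes were higher and 6 lower (median −0.02), shares near those of all genes. IL-6 is a growth factor of myeloma, and the genes of both chains of its receptor rose: Il6ra was at 47.03 to 57.98 CPM in Control and 82.9 to 113 CPM in VQ-D1 (0.86, SE 0.244), and Il6st at 131 to 221 and 394 to 538 CPM (1.22, SE 0.204). Jak2 rose by 1.15 (SE 0.148) and Jak1 fell by 0.97 (SE 0.1798), and Socs2, a feedback inhibitor, fell by 4.80 (SE 0.460). Notch genes were lower in 7 of 15 cases and higher in 1 (median −1.21). Notch1 was at 107 to 134 CPM in Control and 16.3 to 27.9 CPM in VQ-D1 (−2.49, SE 0.196).

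Homing and adhesion had 16 of 24 genes lower and 5 higher (median −1.67), 3 higher without VQ-D1 replicate 3. Itgb7, an integrin chain of gut homing, was at 93.7 to 120.1 CPM in Control and 2.80 to 8.22 CPM in VQ-D1 (−3.58, SE 0.311), whereas its partner Itga4 rose by 1.04 (SE 0.187). Cxcr4, a receptor that holds plasma cells in the marrow, was not called (0.25, SE 0.181). Immune checkpoint genes were lower in 9 of 15 cases and higher in 3 (median −1.69). Of 22 checkpoint genes in the files, 15 passed the filter on low counts. In each list of this paragraph, members that passed it through the Control libraries alone had to differ, so these counts are a description. Btla, an inhibitory receptor of lymphocytes, was at 69.1 to 121 CPM in Control and 0 to 0.740 CPM in VQ-D1 (−9.08, SE 0.695). The interferon response had 5 of 23 higher and 7 lower (median −0.67). Its lower share was near that of all genes and its higher share below it. Without the filter on low counts the median over 28 genes was 0.09. Gbp3, a guanylate-binding protein, was at 27.6 to 59.7 CPM in Control and 227 to 465 CPM in VQ-D1 (3.10, SE 0.453).

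Of 20 genes recurrently altered in human myeloma 8 were higher and 8 lower (median −0.08), 4 lower with the bone marrow libraries alone. Kdm6a, the X-linked H3K27 demethylase UTX, was at 98.6, 52.2 and 65.2 CPM in Control and 2.96, 0.165, 0 and 0.836 CPM in VQ-D1. No library of one group reached the other, and the log2 fold change was −6.56 (SE 0.434, edgeR adjusted p = 5.63e-10). It averaged 23.7 to 75.3 CPM in the other lines and was called lower in VQ-D1 than in each. Ezh2, the H3K27 methyltransferase, was at 39.9, 60.7 and 40.7 CPM in Control and 4.20, 0.824, 1.74 and 0.697 CPM in VQ-D1 (−4.90, SE 0.384). VQ-D4 was also low, at 0.450 ± 0.613 CPM (SD, n = 4), and was not called different from VQ-D1 (edgeR adjusted p = 0.135). Of 19 genes of PRC2, H3K27 demethylation and DNA methylation 5 were higher and 8 lower (median −0.02), 3 higher with the bone marrow libraries alone or without Control replicate 2.

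Targets of myeloma drugs were lower in 10 of 21 cases and higher in 5 (median −0.22). Ikzf3, the factor Aiolos that is degraded under lenalidomide, was at 446, 416 and 541 CPM in Control and 33.1, 33.3, 11.01 and 10.45 CPM in VQ-D1 (−4.40, SE 0.370), and was lower than in each other line, a call lost with the bone marrow libraries alone (adjusted p = 0.105). Crbn, the ligase subunit that binds lenalidomide, was at 84.6 to 102 CPM in Control and 95.9 to 106 CPM in VQ-D1 and was not called (0.10, SE 0.111). Cd52, a surface antigen of lymphocytes, rose by 1.82 (SE 0.415), and Slamf7, the target of elotuzumab, fell by 0.63 (SE 0.143).

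Chromosomes 5 and 8 had a larger share of lower genes than any other chromosome. Over genes with at least 10 CPM in either group and a RefSeq position, the median log2 fold change was −0.88 on chromosome 5 (544 genes) and −0.78 on chromosome 8 (460 genes), and 0.01 to 0.23 on each other chromosome. On chromosome 5, 74.1% of these genes were called lower and 6.25% higher, and on chromosome 8, 69.3% were lower and 8.26% higher. On the other chromosomes together 26.9% were lower and 37.4% higher. Of the genes of this set that were called lower, chromosomes 5 and 8 held 722 (25.2%) and the other chromosomes 2145 (74.8%).

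The shift ran along both chromosomes. In windows of 20 Mb the median lay between −1.20 and −0.83 on chromosome 5 and between −0.94 and −0.61 on chromosome 8. Relative to the mean of the 7 libraries, chromosome 5 lay at −0.40 to −0.36 in the VQ-D1 libraries and at 0.49 to 0.54 in the Control libraries, and chromosome 8 at −0.37 to −0.33 and at 0.44 to 0.48. No library of one group reached the other. The exact two-sided permutation p was 0.0286 for each (adjusted 0.0357 over 20 chromosomes), the smallest that 4 against 3 libraries can give. It was equally small for 14 other chromosomes, whose medians differed far less, so the size and not the p sets chromosomes 5 and 8 apart.

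Other tumour lines showed the pattern in part. The median of chromosome 5 against Control was −0.93 in VQ-D4, −0.28 in t-VK12653, 0.00 in VQ-D2 and 0.01 in VQ-D5. That of chromosome 8 was −0.78 in t-VK12653, −0.01 in VQ-D4, 0.03 in VQ-D2 and −0.02 in VQ-D5. All of these comparisons share the 3 Control libraries. Copy number was not measured, and its part in the pattern was not tested.

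**Figure D4:**
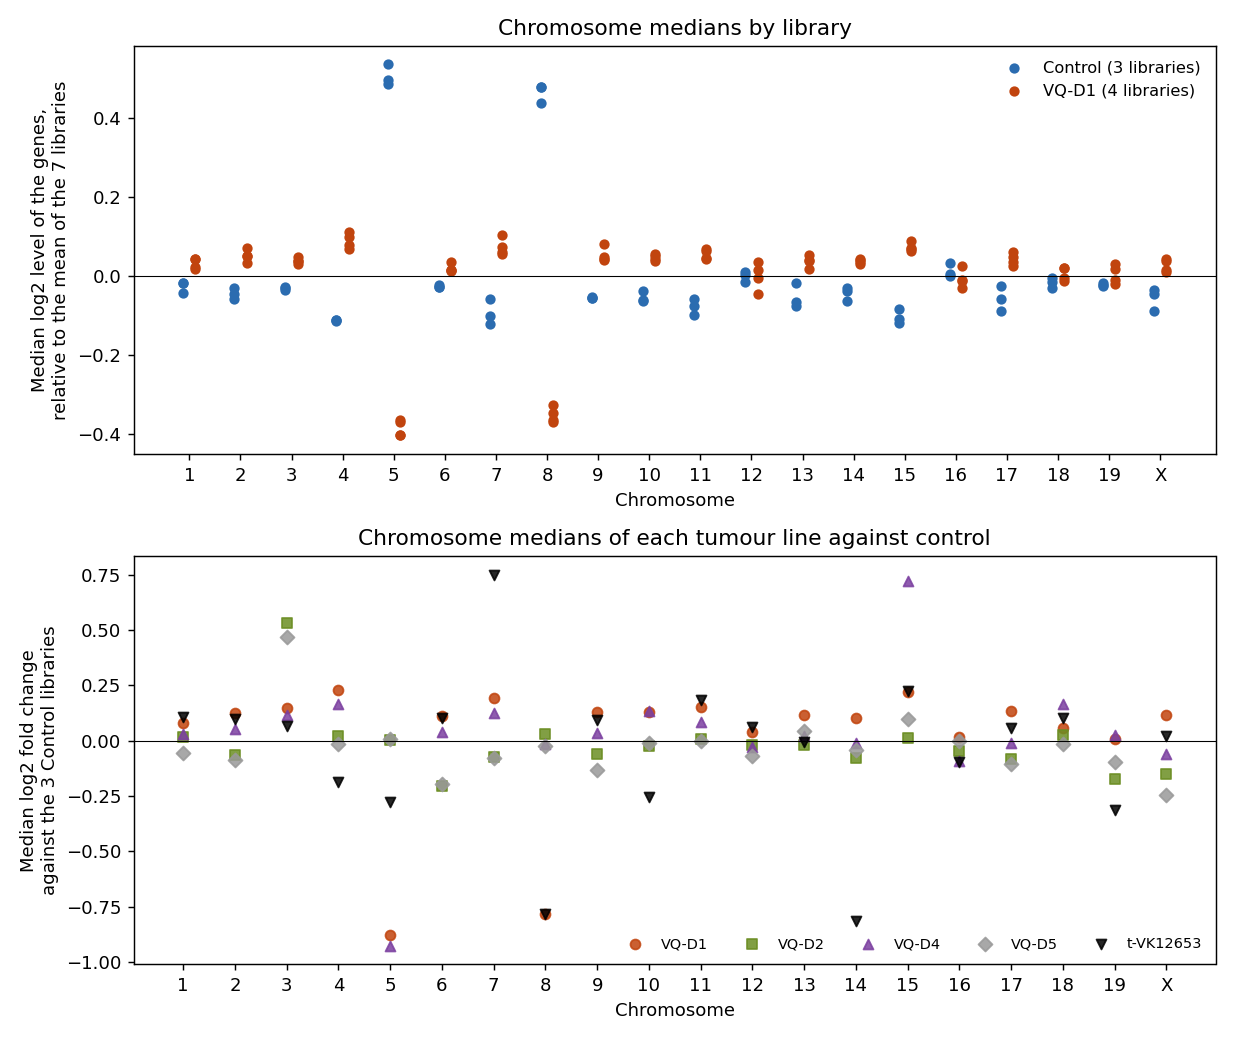
Top, median log2 level of the genes of each chromosome (x axis) in each Control library (blue) and VQ-D1 library (orange), relative to the mean of the 7 libraries; bottom, median log2 fold change of each tumour line against the 3 Control libraries. In the top panel chromosomes 5 and 8 lie between −0.40 and −0.33 in the VQ-D1 libraries and between 0.44 and 0.54 in Control, and the other chromosomes between −0.12 and 0.11 in all 7 libraries; in the bottom panel other lines are shifted on other chromosomes, such as t-VK12653 on chromosome 14 (−0.81).

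Members of the lists lie on these chromosomes too. Of the 5 MYC targets that were not called, Cad, Mcm5 and Mcm7 do. Without Control replicate 2 Mcm5 and Mcm7 were called higher (adjusted p = 0.00338 and 0.00638) and Cad lower (0.0248), and Cad was also called lower without VQ-D1 replicate 3 (0.0389), with RLE scaling (0.0172) and in DESeq2 (0.0110). Without chromosomes 5 and 8 the median was 1.40 for MYC targets, 1.10 for DNA replication and 0.97 for cholesterol synthesis. Cyld and Dusp4 lie on chromosome 8 and Cd38 and Cdk6 on chromosome 5, and each fell further than the median of its chromosome.

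A further set of contrasts asked in which genes VQ-D1 differed from every other tumour of the series. Against single lines 51.3% (VQ-D2), 41.2% (VQ-D4), 58.5% (VQ-D5) and 51.9% (t-VK12653) of genes were called. Against all 4 in the same direction 352 genes (2.74%) were higher in VQ-D1 and 453 (3.52%) lower. Of the higher ones 231 were also higher and 36 lower than in Control, and of the lower ones 333 were also lower and 28 higher. The genes named next were chosen for their large differences, which are therefore a description.

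Among the higher ones, Zfpm2, a cofactor of GATA factors in heart development, had 1 Control read, stood at 53.6, 53.7, 39.6 and 40.98 CPM in VQ-D1 and averaged at most 0.0619 CPM in any other line. Ndst3, a sulfotransferase of heparan sulfate, was at 116 to 149 CPM in VQ-D1 and averaged 0.217 to 15.4 CPM in the other lines. Rbm24, a splicing regulator of muscle, was at 0.324, 4.09 and 0 CPM in Control and 50.3, 61.4, 88.6 and 69.1 CPM in VQ-D1, and this call was lost in DESeq2 (adjusted p = 0.0600). Arhgef16 and Pramef12 averaged 19.5 ± 5.35 and 22.7 ± 2.63 CPM in VQ-D1 (SD, n = 4). Nol4 varied within VQ-D1, at 3.21, 5.77, 13.8 and 25.6 CPM, and its difference from the other lines was not called in DESeq2 (adjusted p = 0.0748).

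The lower genes named here had to average at least 10 CPM in each other line, so their expression there was set by the choice. The rule also asked for a call against Control. Gabra4, a subunit of the GABA-A receptor on chromosome 5, had no VQ-D1 read against 15.8 to 48.96 CPM in Control, at least 243-fold lower, and averaged 37.6 to 107 CPM in the other lines. Tmem18 had no VQ-D1 read either, at least 108-fold lower than Control at 9.72 to 12.97 CPM. Dyrk2, a protein kinase, had 1 VQ-D1 read against 17.1 to 37.3 CPM in Control (Control over VQ-D1: ratio 673, 95% counting interval 119.6 to 26681). Pdcd5, a gene linked to apoptosis, had 2 VQ-D1 reads and averaged 21.98 to 36.8 CPM in the other lines. Zbtb10 and Slco5a1 had 1 VQ-D1 read each.

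Within VQ-D1, few genes passed a test between the sites, which sets 2 libraries against 2, so that a gene without a call is not shown to be alike in both. Between the 2 spleen and the 2 bone marrow libraries edgeR called 0 of 13987 genes, 633 (4.53%) had an unadjusted p under 0.05 (173 higher and 460 lower in spleen), and DESeq2 called 13. Without the filter on low counts edgeR called 188. With the recipient as a block, a fit added after the data were seen, edgeR called 8 genes (0.0572%), all lower in spleen: Bcl2, Cxcl12, Fam129a, Lamb1, Osgin1, Sla, Slc38a1 and Snord82. Cxcl12, a chemokine of marrow stroma, was at 17.8 and 3.28 CPM in bone marrow and 0.165 and 0 CPM in spleen. Slc38a1, an amino acid transporter, was at 2.71 and 4.44 CPM in bone marrow and 0.165 and 0.418 CPM in spleen.

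The 2 recipients of the tumour differed in 35 genes (0.250%), 12 higher and 23 lower in the second, in the same added fit. Ikzf3 was at 33.1 and 33.3 CPM in the first recipient and 11.01 and 10.45 CPM in the second (log2 difference of the second minus the first −1.63, SE 0.156). Pecam1, an adhesion molecule of endothelium and some blood cells, was at 346 and 318 CPM in the first and 119 and 119.7 CPM in the second (log2 difference −1.48, SE 0.122), and at 38.9 to 46.7 CPM in Control. In both genes the libraries of a recipient lay close together whatever their tissue. Cacna1e, a calcium channel subunit, was at 128 and 81.5 CPM in the first and 25.02 and 12.3 CPM in the second. Epha7, an ephrin receptor, ran the other way, at 35.3 and 69.7 CPM and at 135 and 206 CPM, and its call was lost without replicate 1 or 3. These genes were named after their values were seen, and 2 recipients do not describe recipients in general.

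Markers of other blood cells were lower in VQ-D1. Neutrophil markers were lower in 15 of 16 cases and higher in 0, with a summed level of 3287 to 9115 CPM in Control, 355 and 1235 CPM in the bone marrow libraries of VQ-D1 and 22.9 and 169 CPM in its spleen libraries. The number called lower was 11 in DESeq2 and 10 without VQ-D1 replicate 3. S100a9, an abundant neutrophil transcript, was at 786, 2223 and 865 CPM in Control and 238, 5.27, 71.5 and 34.98 CPM in VQ-D1. Erythroid markers were lower in 13 of 13 cases (11 in DESeq2), with sums of 198 to 1184 CPM and 12.7 to 37.5 CPM. T and NK cell markers were lower in 8 of 9 cases, with sums of 112 to 179 CPM and 3.95 to 9.62 CPM, and 2 of 18 markers in the files had no VQ-D1 read. Members that passed the filter on low counts through the Control libraries alone had to differ, so these counts are a description.

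Monocyte and macrophage markers were lower in 9 of 13 cases and higher in 1, Cd68, and their sums overlapped, at 544 to 1706 CPM in Control and 582 to 836 CPM in VQ-D1. Dendritic cell markers were lower in 3 of 7 cases and higher in 1, Bst2, at 366 to 458 CPM and 239 to 303 CPM. Megakaryocyte, mast cell and basophil markers were lower in 2 of 4 tested cases (5 without Control replicate 1, where more of them passed the filter), and endothelial and stromal markers in 2 of 6. The latter count was 0 in DESeq2, 1 without Control replicate 1 or 2 or VQ-D1 replicate 2 or 3, and 3 without VQ-D1 replicate 1. Abundant non-coding RNA was higher in 4 of 7 cases and lower in 1, Malat1. The part of other cells in the genes that were lower in VQ-D1 was not tested.

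**Figure D5:**
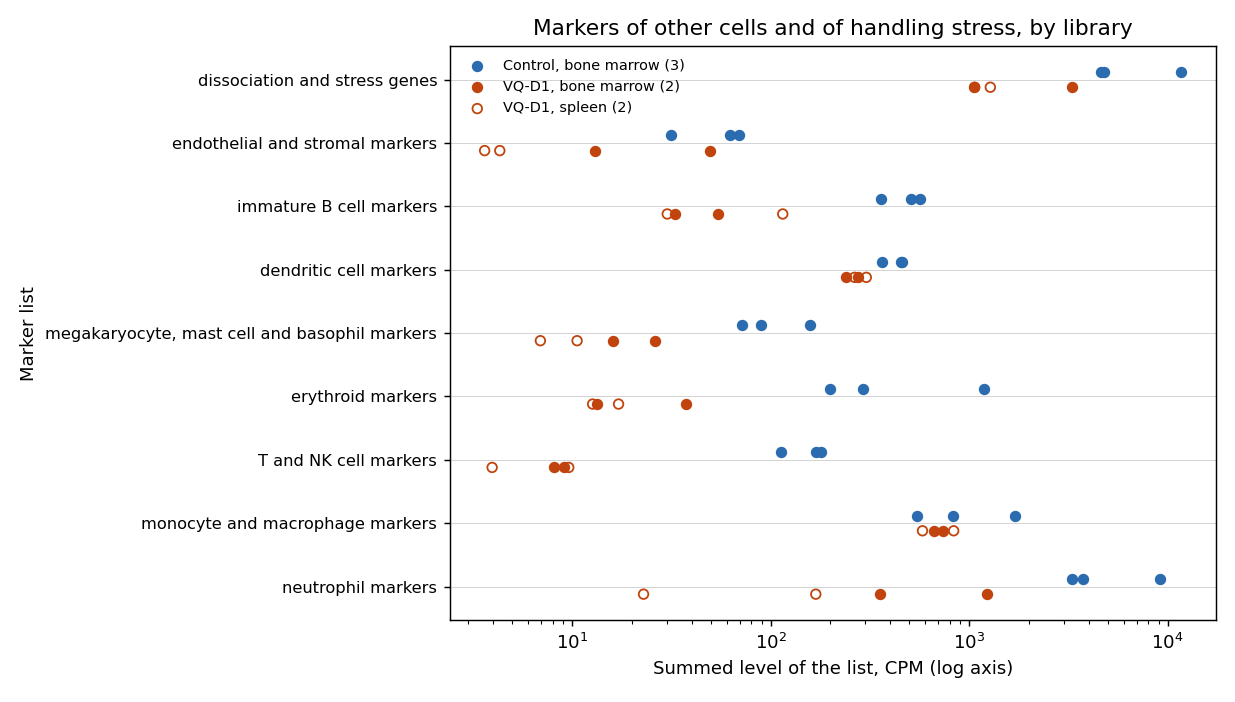
Summed level of each marker list (rows) in each Control library (blue), VQ-D1 bone marrow library (filled orange) and VQ-D1 spleen library (open orange), in CPM on a log axis. The groups overlap for monocyte and macrophage markers and for endothelial and stromal markers, and Control lies above VQ-D1 for the other 7 lists, for example for T and NK cell markers at 112 to 179 CPM against 3.95 to 9.62 CPM.

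Sex-linked transcripts differed within Control as well as between the groups, with 5 of 6 called lower in VQ-D1 by edgeR and 2 by DESeq2. The Y-linked gene Ddx3y was at 41.8, 113 and 122 CPM in Control and 0, 0, 0.386 and 0.279 CPM in VQ-D1. Xist, transcribed from the inactive X chromosome, was at 1350.4, 3.41 and 3.94 CPM in Control and 36.3, 6.75, 5.12 and 5.99 CPM in VQ-D1. Its call as lower rested on Control replicate 1, without which the log2 fold change was 2.51 (adjusted p = 0.112). Control replicate 1 thus held both transcripts, the other Control libraries mainly the Y-linked one, and the VQ-D1 libraries little of either. The part of sex in the differences between VQ-D1 and Control cannot be told apart from the rest.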

How the data were processed

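RNA-seq of CD138+B220- mouse cells was analysed from the authors' deposited tables of raw counts per gene. The deposited FPKM values were not used, and the deposited TPM values served only to compare levels between genes. STAR, featureCounts and DESeq2 with GRCm38 (mm10) are named per the submitters' processing notes; annotation, settings and strand handling are not given in the sources, so reads of overlapping or antisense genes cannot be told apart. Per the labels' protocols, libraries were made from total RNA with a stranded low-input kit.

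The members and gene lists were chosen with earlier results of these data known. Counts of all 23 libraries entered 1 fit in edgeR 4.0.16 (R 4.3.3): TMM scaling, filterByExpr, robust quasi-likelihood test, group and tissue as terms, Benjamini-Hochberg adjustment over all genes tested, threshold 0.05. Spleen was compared with bone marrow in a fit with 1 mean per group and tissue. limma 3.58.1 and DESeq2 1.42.0 were alternatives.

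Named genes are Nras and Myc, the 10 highest and 10 lowest log2 fold changes without overlap and with at least 10 CPM in the higher group, the 6 per direction that differ most from all other lines, and up to 6 members of each list, by size of change and then level. The genes that differ most from all other lines had to be called against Control as well. Those higher in VQ-D1 had to average at least 10 CPM there, and those lower at least 10 CPM in each other line. Other list members, the genes named for site, recipients, TPM and promoters, and the exceptions of single lists were named after their values were seen. Ranked genes leave out predicted, small RNA, immunoglobulin and sex-linked genes. The TPM ranks also leave out the list of abundant non-coding RNA. Some genes named by this rule are not reported here.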

Additional observations from a re-analysis of the deposited data

Results flagged for a closer look

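In 9 of 137 named genes 1 of the 4 VQ-D1 libraries stood apart, with a gap to its nearest neighbour, as a share of the whole range, above the 95% critical value of Dixon's test for 4 values. Gap and range were taken on log2 CPM with a small count added, so the shares do not follow from the plain CPM printed here. Chance alone flags about 1 in 20 groups, so several of these are what chance gives. In Slco5a1 and Zbtb10 (share 1 each) the value apart was a single read in replicate 1 beside 3 libraries at 0, and in Dyrk2 (share 1) a single read in replicate 4. Replicate 3 was high in Igj (829 CPM against 613 to 623 CPM, share 0.948) and in Nop58 (267 CPM against 222 to 227 CPM, share 0.881). Replicate 1 was low in Slc47a1 (35.0 CPM against 39.6 to 40.0 CPM, share 0.921) and high in Xist (36.3 CPM against 5.12 to 6.75 CPM, share 0.863). Replicate 2 was low in Itgb7 (2.80 CPM against 7.25 to 8.22 CPM, share 0.879), and replicate 4 was high in Itga4 (1147 CPM against 988 to 1009 CPM, share 0.860).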

How the results depend on the processing

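The count of 7639 genes called between VQ-D1 and Control ranged from 6535 with the bone marrow libraries alone to 7840 without a tissue term over 18 alternatives, and was 6709 to 7429 when 1 replicate was left out. Every gene called both here and in an alternative kept its direction. RLE scaling lowered the median of all genes by 0.088 and the share of calls that were higher to 45.1%. The log2 fold change of Myc stayed between 3.57 and 4.01. That of Nras was no longer past the threshold with RLE scaling (0.32), in DESeq2 (0.31), with the bone marrow libraries alone (0.27) and with the recipient as a random block (0.38), and lay between 0.36 and 0.52 when 1 replicate was left out. Why was not tested.

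Spleen against bone marrow gave 188 calls without the filter on low counts, 13 in DESeq2, 8 with the recipient as a fixed block, and 0 to 10 when 1 VQ-D1 replicate was left out (2 without replicate 1, 10 without replicate 3, 1 without replicate 4). DESeq2 gave 512 genes at an unadjusted p under 0.05. The 805 genes that differed from all 4 lines became 408 with the bone marrow libraries alone, where only 3 lines could be compared, and 664 to 763 when 1 VQ-D1 replicate was left out. The 35 genes between recipients became 91 without the filter, and 8 to 16 when 1 library was left out (8 without replicate 1 or 3, 16 without replicate 2 or 4), which leaves a recipient with 1 library, assumed to vary like the other groups. The causes were not tested.

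Replicate numbers of VQ-D1 and Control mark no shared animal, and the deviations of same-numbered libraries correlated at −0.06, −0.22 and −0.03, so the numbers pair nothing. With the replicate block 7436 genes were called against Control, 770 against all other lines and 10 between spleen and bone marrow.

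Among single genes, 48 values fell short of the threshold under an alternative, 27 newly passed it and 11 changed sign. Those that changed sign were small and not called, apart from Xist, which ranged from −5.50 to 2.51 with 1 replicate left out. Sdc1 was −0.0503 with RLE scaling, −0.04997 in DESeq2, −0.00681 with the bone marrow libraries alone, −0.0342 without a tissue term, −0.0438 with the 7 libraries alone, −0.0237 with counts summed per recipient and −0.14 to 0.17 with 1 replicate left out. Mdm2 against Control was 0.0223 without the filter, 0.00249 with counts summed per recipient and −0.214 to 0.0639 with 1 replicate left out. Depth limits genes near the floors of 0.305 CPM in Control and 0.109 CPM in VQ-D1.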
